A study of Mus musculus with 6 samples.

Results

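Interferon-stimulated genes are the genes that cells switch on when interferon binds its receptors. Here they are 41 mouse genes, interferon-induced effectors and interferon signalling genes without the MHC and antigen-processing genes, found by matching each symbol to the Ensembl identifier of a row in the deposited count table. All 41 were among its 57180 rows with an identifier, and 26 of them had enough counts to be among the 8692 genes tested. The RNA was from cells isolated from calvaria, the bones of the skull vault, and cultured under conditions that drive bone formation: MEM alpha with 10% serum, β-glycerophosphate at 4 mM and, as the labels write it, ascorbate at 50 mg/ml. The wild type, wt, was C57BL/6 (3 libraries), and the mutant, gld, which the labels call FasL KO (3 libraries), was B6Smn.C3-Faslgld/J, homozygous for the gld point mutation of Fasl, the gene of Fas ligand. The design text describes wt and gld cells kept in parallel with a FasL-treated group, not analysed here, that was treated from day 14 for 72 h. The groups differ in strain name as well as at Fasl, so the mutation and other strain differences cannot be told apart. Neither the age nor the sex of the mice is given. Nothing in the labels says that a group's 3 libraries are different animals or dishes, so every p-value here reflects library-to-library spread that could be purely technical.

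Type I interferons act through the receptor chains Ifnar1 and Ifnar2 and the kinases Jak1 and Tyk2, which activate transcription factors, among them Stat2. Together with Irf9 it acts at the interferon-stimulated response element in the promoters of effector genes, while interferon gamma acts mainly on another element, the gamma-activated site. The effectors bind or degrade foreign RNA, block viral entry, or feed back on the receptor, and cells without infection hold a baseline level of many of them.

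The libraries held 2011173 to 3105322 counts in wt and 4048258 to 5245546 in gld. Reads were taken at transcript ends, and members whose annotated end is shared by several transcripts mostly had few counts. For 21 members the last 300 exonic bases belong to 1 annotated transcript only; their median total was 1920 counts, and none was at 0. For the 20 members with a shared end the median total was 5.5, and 8 of them (Oas2, Irf1, Irf7, Mx1, Gbp3, Igtp, Ifitm1 and Rtp4) were listed at 0 in every library, which does not show that they have no transcript. Of 12 markers of the osteoblast lineage, Dlx5 and Phospho1 were listed at 0 and Bglap, Spp1 and Sp7 were at or near 0. Of the 5 tested, Col1a1, Col1a2 and Ibsp were higher in gld (log2 fold changes 1.83, 1.68 and 4.30), Alpl was lower (−2.20) and Runx2 did not pass (largest edgeR adjusted p of the 4 calls 0.0136). Summed, the osteoblast markers, mostly the collagens, ranged from 16312 to 23987 CPM in wt and from 61396 to 67639 CPM in gld. Markers of macrophages and osteoclasts differed with genotype too. Of 24, 14 were tested, 12 were higher and 2 (Cd14 and Cd53) lower in gld, and their summed level was 541 to 776 CPM (library-size-scaled counts with TMM factors) in wt and 3062 to 7348 CPM in gld. Lyz2 made up most of the gld sum. Among the 7 of these markers listed at 0 in every library were the defining Csf1r, Adgre1, Tyrobp and Fcer1g. The ends of Adgre1, Tyrobp and Fcer1g are shared between transcripts, so their 0 does not show that they have no transcript. The part of either marker list in any result below was not tested, and in these bulk cultures fewer cells of a type and less RNA per cell cannot be told apart.

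The tested members that differed were lower in gld, in a list chosen with earlier results of these data known. A further list of interferon-stimulated genes, given below, had calls in both directions. In edgeR's quasi-likelihood test of gld against wt, 9 of 26 were past an adjusted p of 0.05 as lower and 0 as higher, while 7.69% of all genes tested were called lower and 9.74% higher. At an unadjusted p under 0.05, 12 were lower and 0 higher, against 12.5% of all genes tested that were lower. DESeq2 called 10 members lower and 0 higher (8.84% and 10.6% of all genes), and limma-voom 12 and 0 (8.21% and 8.71%). In edgeR with library size alone 11 were lower and 0 higher (11.2% and 8.28% of all genes), and with no low-count filter 10 were lower and 1, Ifit2, higher (3.65% and 4.88%). The 9 were Ifitm3, Usp18, Ifi27l2a, Ifi44, Trim30a, Stat2, Oas1a, Ifit1 and Mx2, with log2 fold changes from −1.94 to −0.91. The fitted fold change was below 0 in 22 of the 26, against 48.7% of all genes tested, and its median was −0.76, against 0.02 over all genes tested. The groups did not overlap in 12 members, all lower in gld, where 15.2% of all genes tested were lower without overlap. Summed over the 41 members, the level was 8529, 9432 and 8690 CPM in the wt and 4008, 5707 and 5274 CPM in the gld libraries. Ifitm3 made up most of that sum, and without it the sums were 3147, 4262 and 3382 CPM in the wt and 1801, 2761 and 2612 CPM in the gld libraries. On either sum the 3 gld libraries lay below the 3 wt libraries.

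**Figure D1:**
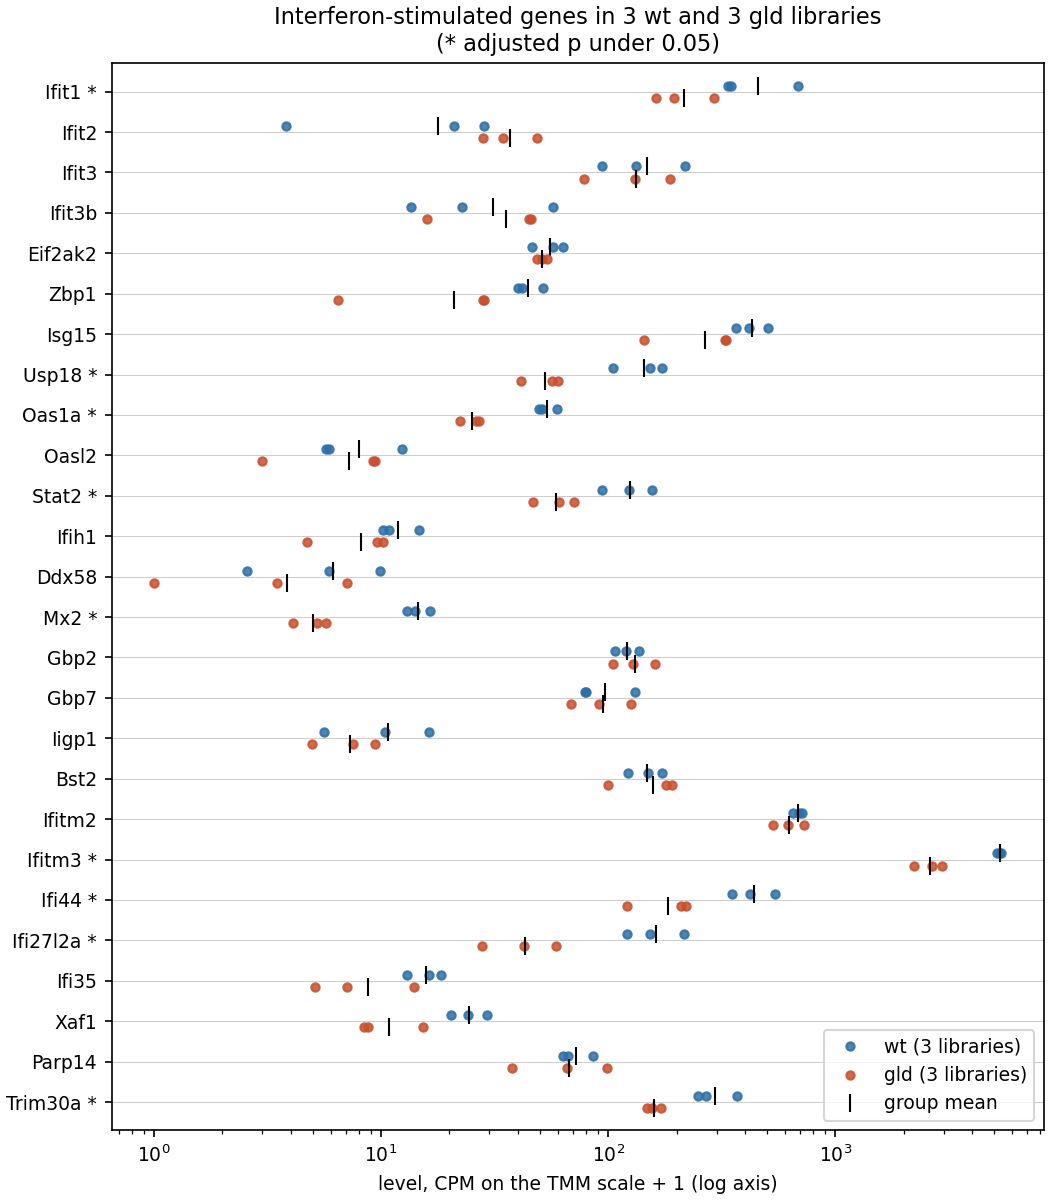
Level of the 26 tested interferon-stimulated genes in each of the 3 wt (blue) and 3 gld (red) libraries, as CPM on the TMM scale + 1 on a log axis, with group means as black ticks. The 9 genes marked with an asterisk had an edgeR adjusted p under 0.05, and in each of them every gld library lay below every wt library.

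Of the signalling members, 1 of 4 could be tested. Stat2, the transcription factor that carries the type I interferon signal to the response element, had 197, 489 and 398 counts in the wt and 239, 263 and 222 counts in the gld libraries. As levels these were 92.6, 155 and 122 CPM in the wt and 59.6, 69.3 and 45.6 CPM in the gld libraries, so the groups did not overlap, with wt 1 and gld 2 the nearest pair. Stat2 fell by 1.09 ± 0.23 on the log2 scale (SE, edgeR adjusted p = 0.0033). Its last 300 bases are shared between its annotated transcripts. Irf9, its DNA-binding partner, had 3 counts in all, in wt 3, and Irf1 and Irf7, interferon-induced transcription factors, were listed at 0, so the other signalling members could not be compared.

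The members that sense foreign RNA in the cytoplasm had few counts. Ifih1, the sensor of long double-stranded RNA also called MDA5, had 13.6, 9.17 and 9.83 CPM in the wt and 3.74, 9.23 and 8.62 CPM in the gld libraries, and the groups overlapped through gld 2. Its log2 fold change was −0.59 ± 0.57 (SE, edgeR adjusted p = 0.589). Ddx58, the sensor RIG-I, had 19, 5 and 16 counts in the wt and 10, 23 and 0 counts in the gld libraries, at −0.84 ± 1.2 (SE, edgeR adjusted p = 0.74). The counts of Ddx58 give no order between the groups. Ddx60, a related helicase, had 36 counts over the 6 libraries and Helz2, an interferon-induced helicase, had 1, and neither was tested. The ends of Ddx58 and Helz2 are shared between transcripts, so their few counts do not show that they have few transcripts. Those of Ifih1 and Ddx60 are not shared.

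The IFIT genes lie next to each other on chromosome 19 and encode proteins that bind viral RNA and hold back its translation. Ifit1 (GRCm38 chr19:34640871-34650009), which recognises RNA caps that lack host methylation, had 335, 687 and 348 CPM in the wt and 162, 291 and 193 CPM in the gld libraries. Every gld library was below every wt library, and wt 2 was the highest of the 6. Ifit1 fell by 1.09 ± 0.26 on the log2 scale (SE, edgeR adjusted p = 0.00866), and fell by 0.66 without wt 2 (adjusted p = 0.0459). Ifit2 (chr19:34550694-34576419), a relative that also restricts viral translation, had the higher mean in gld, with 6, 87 and 65 counts in the wt and 134, 103 and 231 counts in the gld libraries. At 2.82, 27.5 and 20.0 CPM in the wt and 33.4, 27.2 and 47.4 CPM in the gld libraries its groups overlapped, and the low value of wt 1 stood apart from the other wt libraries. Its log2 fold change of 1.07 ± 0.52 (SE, edgeR adjusted p = 0.205) did not pass and was 0.60 without wt 1. Ifit3, which stabilises the Ifit1 complex, had 92.6, 217 and 131 CPM in the wt and 77.1, 187 and 131 CPM in the gld libraries (log2 fold change −0.17 ± 0.31, SE, edgeR adjusted p = 0.81). Its copy Ifit3b had 21.6, 56.0 and 12.6 CPM in the wt and 15.0, 44.6 and 43.9 CPM in the gld libraries (0.19 ± 0.50, SE, edgeR adjusted p = 0.87). Of the 75-base stretches in the last 500 bases of Ifit3, 9.9% also occur in Ifit3b, so their counts may be partly split between them.

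Ifit1 and Ifit2 lie in the same gene cluster, and their counts were set against each other within each library, which needs no scaling between libraries. There were 119, 25.0 and 17.4 Ifit1 counts per Ifit2 count in wt and 4.85, 10.7 and 4.07 in gld, without overlap between the groups. The log2 difference of this ratio was −2.64, or −1.81 without wt 1, and an exact permutation test (two-sided) gave p = 0.1, the smallest value 3 libraries against 3 can give. Ifit1 against Ifit3 gave 3.62, 3.17 and 2.65 in wt and 2.10, 1.55 and 1.48 in gld, again without overlap (log2 difference −0.88, p = 0.1 in the same exact test). These 2 ratios and the 2 given further on were picked after the values were seen, and adjusted over the 4 the exact permutation p stays at 0.1.

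The promoters of Ifit1 and Ifit2, a pair picked after the values were seen, are shown for the letters of the response element. RefSeq promoter sequences of GRCm38.p6, from 250 bases before to 50 after the start, were searched on both strands for the core letters of the response element, GAAA and GAAA with 2 bases of any kind between them. Capitals mark a match. Only exact letters in these windows count, so a window without a match does not show that the gene lacks the element.
Ifit1 (chr19:34640639-34640938, plus strand): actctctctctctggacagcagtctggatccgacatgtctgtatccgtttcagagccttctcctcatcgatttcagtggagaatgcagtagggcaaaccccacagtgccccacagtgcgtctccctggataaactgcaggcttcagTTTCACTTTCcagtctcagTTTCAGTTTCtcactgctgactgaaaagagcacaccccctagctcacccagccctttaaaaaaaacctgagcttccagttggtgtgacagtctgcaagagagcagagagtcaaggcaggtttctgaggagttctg
Ifit2 (chr19:34550444-34550743, plus strand): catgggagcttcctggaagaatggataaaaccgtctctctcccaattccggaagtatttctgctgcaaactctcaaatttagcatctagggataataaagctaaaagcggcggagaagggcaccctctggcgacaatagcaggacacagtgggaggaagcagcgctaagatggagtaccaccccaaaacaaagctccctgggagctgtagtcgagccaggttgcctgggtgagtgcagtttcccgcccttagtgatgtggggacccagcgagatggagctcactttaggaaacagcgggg
The Ifit1 window holds 2 matches, both as the reverse complement, starting 104 and 85 bases before the start, and this Ifit2 window, the first of 2 in the table, holds none, nor does the other. Ifit3 and Ifit3b, which lie between them and did not pass, each have 2 matches.

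Neither of the other RNA-binding members passed. Eif2ak2, the kinase PKR that stops translation on double-stranded RNA, had 45.1 to 62.3 CPM in wt and 47.6 to 53.0 CPM in gld, and its log2 fold change was −0.12 ± 0.22 (SE, edgeR adjusted p = 0.807). Zbp1, a sensor of Z-form nucleic acid that can start necroptosis, had 39.0, 40.8 and 50.7 CPM in the wt and 5.49, 27.4 and 27.1 CPM in the gld libraries. Its groups did not overlap, but gld 1 lay far below the other 2 gld libraries, and −1.12 ± 0.45 (SE, edgeR adjusted p = 0.114) did not pass, while limma-voom gave an adjusted p of 0.032 and edgeR without a low-count filter 0.0126.

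Isg15 encodes a ubiquitin-like protein that is attached to other proteins, and Usp18 encodes the protease that removes it and that also blocks signalling at Ifnar2. Usp18 had 222, 544 and 493 counts in the wt and 162, 211 and 288 counts in the gld libraries, or 104, 172 and 151 CPM against 40.4, 55.6 and 59.1 CPM. All gld libraries lay below the lowest wt library, and Usp18 fell by 1.46 ± 0.22 on the log2 scale (SE, edgeR adjusted p = 0.00026). Isg15 had 364, 503 and 418 CPM in the wt and 143, 331 and 326 CPM in the gld libraries, without overlap. With −0.68 ± 0.25 (SE, edgeR adjusted p = 0.0735) Isg15 did not pass. Nor did it in DESeq2 (adjusted p = 0.258) or in edgeR when a library other than gld 2 was left out (0.0592 to 0.228). It was past the threshold in limma-voom (adjusted p = 0.0219) and in edgeR with library size alone (0.0204), with a replicate block (0.0153), without a low-count filter (0.000147) and without gld 2 (0.043). There were 0.286, 0.342 and 0.362 Usp18 counts per Isg15 count in wt and 0.283, 0.168 and 0.181 in gld, so the groups were separated by a narrow gap at gld 1 (log2 difference −0.68, p = 0.1 in the exact permutation test).

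Of the OAS enzymes, which make the second messenger that activates RNase L, and the nuclease gene Isg20, 2 of 5 could be tested. Oas1a had 107, 186 and 159 counts in the wt and 85, 99 and 122 counts in the gld libraries, or 50.3, 58.8 and 48.8 CPM against 21.2, 26.1 and 25.0 CPM. Its groups were well apart, and it fell by 1.13 ± 0.25 on the log2 scale (SE, edgeR adjusted p = 0.00561). Of the 75-base stretches near its end, 46.0% also occur in Oas1g, which was listed at 0. Oasl2, an OAS-like protein, had 4.70, 11.4 and 4.91 CPM in the wt and 2.00, 8.17 and 8.42 CPM in the gld libraries (−0.18 ± 0.74, SE, edgeR adjusted p = 0.927). Oas3 had 34 counts and Isg20 had 12 over all libraries, and Oas2 was listed at 0.

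The interferon-induced transmembrane proteins sit in endosome and cell membranes and hinder the fusion of enveloped viruses. Ifitm3 (GRCm38 chr7:141009586-141010770) had 11453, 16356 and 17287 counts in the wt and 8850, 11174 and 12972 counts in the gld libraries. Its level was 5382, 5171 and 5308 CPM in the wt and 2208, 2946 and 2663 CPM in the gld libraries, so that the wt range was narrow and lay above all gld libraries. Ifitm3 fell by 1.02 ± 0.10 on the log2 scale (SE), and its edgeR adjusted p = 5.69e-06 was the smallest of any member. Ifitm2 (chr7:140954837-140955987), its close relative in the same gene cluster, had 692, 651 and 715 CPM in the wt and 529, 619 and 727 CPM in the gld libraries. These values overlapped, and the log2 fold change was −0.13 ± 0.13 (SE, edgeR adjusted p = 0.576). Of the 75-base stretches near the end of Ifitm2, 32.6% also occur in other annotated genes, against 0.9% for Ifitm3. Ifitm1 was listed at 0.

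Within each library there were 7.78, 7.94 and 7.43 Ifitm3 counts per Ifitm2 count in wt and 4.17, 4.76 and 3.66 in gld. The ratio was 7.71 ± 0.264 in wt and 4.20 ± 0.549 in gld (SD, n = 3), and the exact permutation test gave p = 0.1. The log2 difference was −0.89 and ran from −0.98 to −0.79 when each library was left out in turn.

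**Figure D2:**
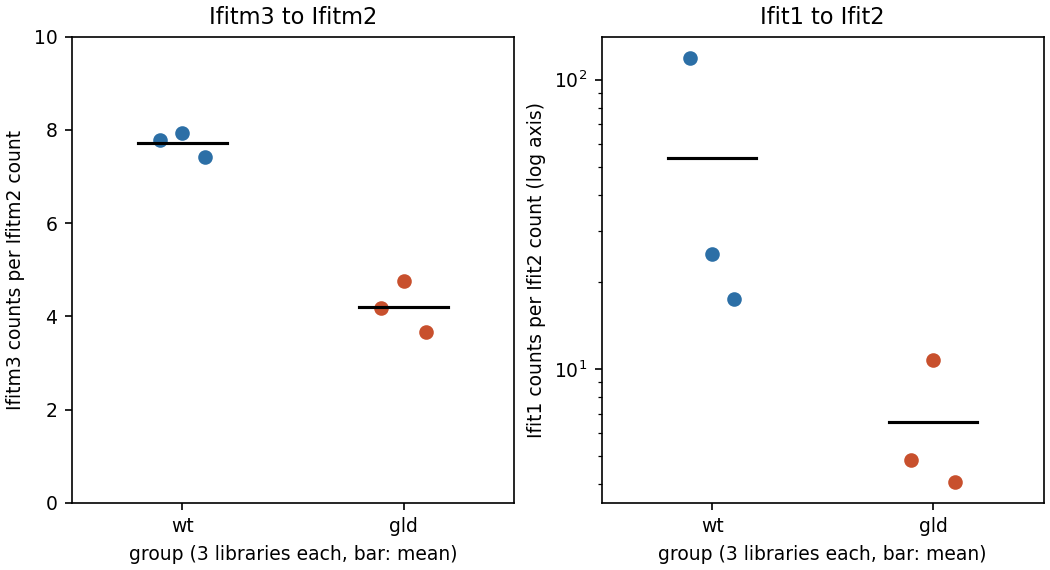
Counts of Ifitm3 per Ifitm2 count (left, linear axis from 0) and of Ifit1 per Ifit2 count (right, log axis) in each library, with the group mean as a bar. Both ratios are higher in all 3 wt libraries than in any gld library, and the wt mean on the right is raised by wt 1 at 119.

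The promoters of Ifitm3 and Ifitm2 are shown because both hold the response element letters while the groups were separate in Ifitm3 and overlapped in Ifitm2.
Ifitm3 (chr7:141010695-141010994, minus strand): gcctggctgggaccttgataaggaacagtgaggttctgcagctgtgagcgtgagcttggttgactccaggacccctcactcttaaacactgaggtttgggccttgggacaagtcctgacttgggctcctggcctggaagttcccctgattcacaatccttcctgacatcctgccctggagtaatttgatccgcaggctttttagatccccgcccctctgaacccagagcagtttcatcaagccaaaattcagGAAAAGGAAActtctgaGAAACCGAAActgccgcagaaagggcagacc
Ifitm2 (chr7:140955912-140956211, minus strand): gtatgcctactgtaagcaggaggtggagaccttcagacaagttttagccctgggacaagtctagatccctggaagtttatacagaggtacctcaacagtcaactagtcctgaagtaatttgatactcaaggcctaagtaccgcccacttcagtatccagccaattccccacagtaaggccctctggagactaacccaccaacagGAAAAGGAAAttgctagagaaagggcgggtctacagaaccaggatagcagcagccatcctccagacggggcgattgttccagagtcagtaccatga
In Ifitm3 the 2 matches lie just after the start, from bases 3 and 20, and in Ifitm2 the 1 match begins 46 bases before it.

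Bst2, or tetherin, which holds budding virus particles on the cell surface, did not pass. It had 149, 172 and 121 CPM in the wt and 98.8, 179 and 190.5 CPM in the gld libraries, at 0.09 ± 0.22 (SE, edgeR adjusted p = 0.871), and its fitted value changed sign to −0.07 with library size alone. Rsad2, the antiviral enzyme viperin, had 8 counts, all in gld 1, and was not tested.

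The GTPases gave 1 call among 4 tested of 8. Mx2, a gene of the dynamin-like family, had 28, 38 and 50 counts in the wt and 19, 16 and 15 counts in the gld libraries, or 12.0 to 15.4 CPM against 3.08 to 4.74 CPM. It fell by 1.75 ± 0.56 on the log2 scale (SE, edgeR adjusted p = 0.0439). That call rests on few counts and was lost without each of the 6 libraries in turn, with adjusted p between 0.064 and 0.155. The end of Mx2 is shared between its annotated transcripts. The guanylate-binding proteins, which attack the vacuoles of intracellular microbes and respond mainly to interferon gamma, did not pass. Gbp2 had 106, 136 and 118 CPM in the wt and 127, 160.1 and 104 CPM in the gld libraries (0.11 ± 0.19, SE, edgeR adjusted p = 0.781), and Gbp7 had 95.5 ± 29.5 and 94.2 ± 28.5 CPM (SD, n = 3; −0.02 ± 0.25, SE, edgeR adjusted p = 0.972). Over the alternatives the fitted value of Gbp2 ran from −0.08 to 0.24 and that of Gbp7 from −0.29 to 0.27. Iigp1, an immunity-related GTPase, had 9.73 ± 5.29 and 6.29 ± 2.24 CPM (SD, n = 3) and did not pass (edgeR adjusted p = 0.615). Irgm1, a regulator of that family, had 3 counts in gld 2, 17 in gld 3 and none elsewhere, while Mx1, Gbp3 and Igtp were listed at 0.

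The remaining effectors held the largest fitted fall. Ifi27l2a, a small mitochondrial protein and one of the most inducible interferon targets, had 456, 380 and 495 counts in the wt and 108, 219 and 203 counts in the gld libraries, or 214, 120.1 and 152 CPM against 26.9, 57.7 and 41.7 CPM. The lowest wt library was above the highest gld library, and Ifi27l2a fell by 1.94 ± 0.28 on the log2 scale (SE, edgeR adjusted p = 0.000134). Ifi44, a cytoplasmic protein with antiviral activity, had 348, 539.6 and 418 CPM in the wt and 119, 219 and 209 CPM in the gld libraries, without overlap. It fell by 1.26 ± 0.21 on the log2 scale (SE, edgeR adjusted p = 0.000631). Trim30a, a TRIM protein that dampens NF-kB signalling, had 247, 369 and 268 CPM in wt and a narrow 147 to 170.3 CPM in gld. It fell by 0.91 ± 0.16 on the log2 scale (SE, edgeR adjusted p = 0.00103).

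Xaf1, a promoter of apoptosis that binds the inhibitor XIAP, had 28.2, 19.3 and 23.0 CPM in the wt and 7.73, 14.2 and 7.39 CPM in the gld libraries. Its groups did not overlap, and −1.26 ± 0.42 (SE, edgeR adjusted p = 0.0551) lay just outside the threshold, inside it in DESeq2 (adjusted p = 0.0393), limma-voom (0.0366) and edgeR with library size alone (0.0278) or without gld 2 (0.0337). Ifi35, a partner of Nmi, had 12.0 to 17.4 CPM in wt and 4.11 to 13.0 CPM in gld (edgeR adjusted p = 0.294). Parp14, an ADP-ribosyl transferase, had 70.9 ± 12.4 and 66.2 ± 30.3 CPM (SD, n = 3, edgeR adjusted p = 0.894). Rtp4 was listed at 0.

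**Figure D3:**
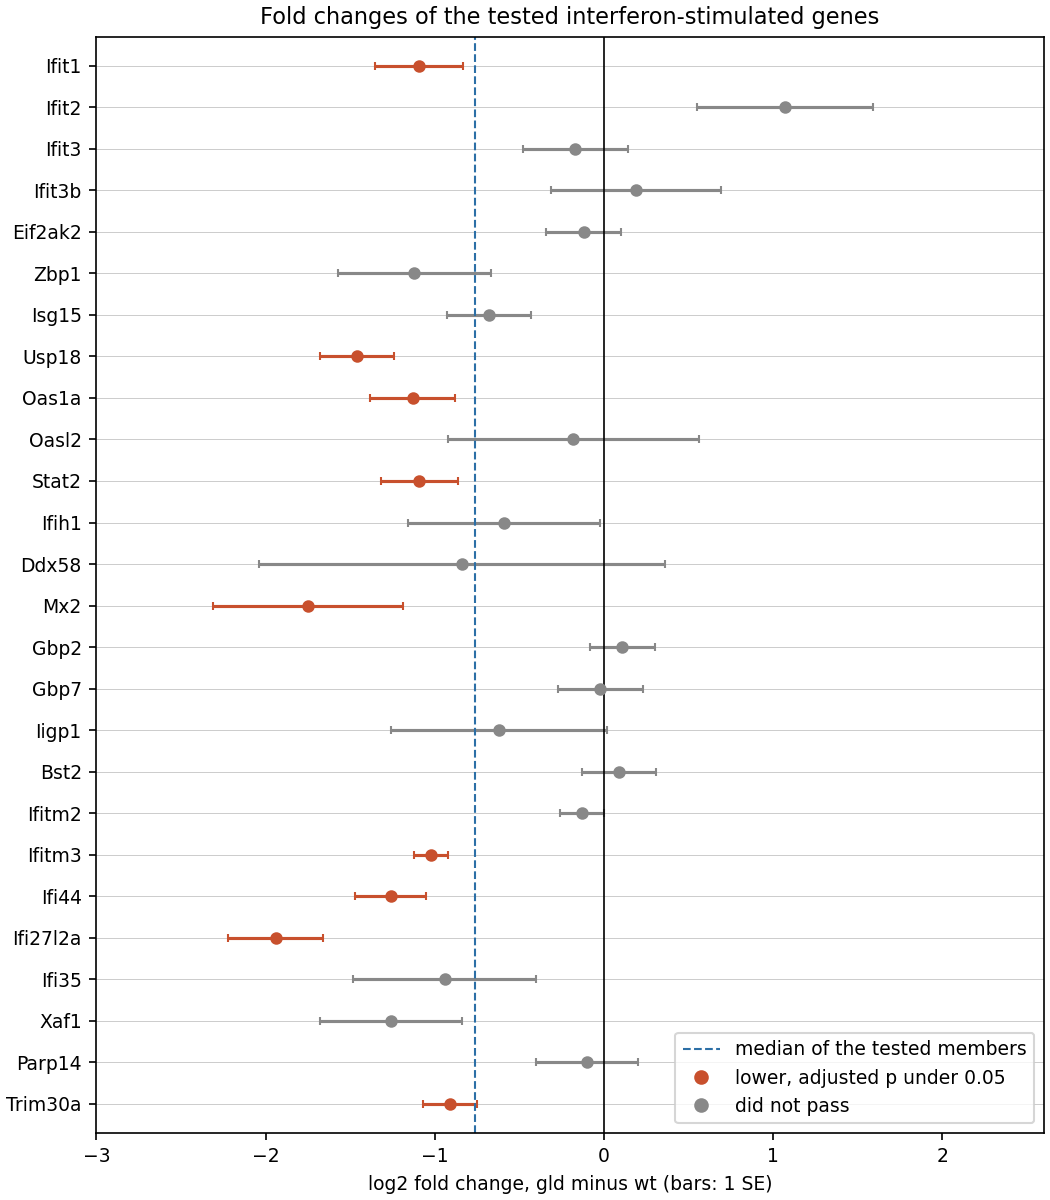
Fitted log2 fold change, gld minus wt, of the 26 tested members with bars of 1 SE, grouped by role from the IFIT genes at the top to the other effectors at the bottom. Red points are the 9 members with an edgeR adjusted p under 0.05, all left of 0, and the dashed line is the median of −0.76.

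Most members share the response element letters in their promoters. The members were picked as interferon-stimulated genes, so this share describes the list and not these libraries. RefSeq promoters were found for 32 of the 41 members, and the table held none for Zbp1, Usp18, Oas2, Mx1, Mx2, Iigp1, Ifi27l2a, Rtp4 and Parp14. The response element letters were present, on either strand, in a promoter of 21 of the 32 (65.6%), against 3.99% of 27025 genes in the table and 3.44% of its 32851 promoters. The letters TTCNNNGAA of the gamma-activated site, the same on both strands, were in 10 of the 32 (31.2%), against 9.55% of genes, and in Bst2 and Ifitm3 a match overlapped one of the response element. The response element letters were in 5 of 6 members called lower and in 10 of 14 that were tested and did not pass. A match is a string of letters, not a bound site, and the windows shown were picked with the fold changes known. The search took exact letters only, so a window without a match does not show that the gene lacks the element. The member called lower without a match was Ifi44, whose window is shown for comparison with the windows above.
Ifi44 (chr3:151749861-151750160, minus strand): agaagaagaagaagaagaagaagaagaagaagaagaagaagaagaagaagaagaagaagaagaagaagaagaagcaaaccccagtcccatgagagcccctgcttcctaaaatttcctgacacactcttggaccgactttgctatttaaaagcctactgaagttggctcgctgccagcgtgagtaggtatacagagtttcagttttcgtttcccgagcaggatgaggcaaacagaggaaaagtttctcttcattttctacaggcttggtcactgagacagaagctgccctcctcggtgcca
Isg15, which did not pass, held 3 overlapping matches from 78 to 66 bases before its start.

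Within a group, the members tended to be high or low in the same library. Among the gld libraries gld 1 was the lowest in 18 of 26 tested members, where it was the lowest in 33.2% of all genes tested, and gld 2 was the highest in 16, against 31.5%. Among the wt libraries wt 2 was the highest in 16 of 26, against 38.6% of all genes tested, and wt 1 the lowest in 13, against 36.4%. The median deviation from the group mean on the log2 scale was −0.30 in gld 1, 0.29 in gld 2 and 0.08 in gld 3, and −0.17, 0.24 and −0.04 in wt 1, wt 2 and wt 3. Over all genes tested these medians lay between 0.00 and 0.04. Zbp1, Oasl2, Ifit3b and Isg15 lay farthest below the group mean in gld 1, while Ifi35 was highest in gld 1 and Ifi27l2a was lowest in wt 2. The summed macrophage markers were 3062, 4420 and 7348 CPM in gld 1, gld 2 and gld 3. Of these, Lyz2 alone gave 1782, 2941 and 4984 CPM. The lowest library was gld 1 for both the summed markers and the summed members. The highest library was gld 3 for the markers and gld 2 for the members. Members are not independent of each other, and the pattern was noticed after the values were seen, so these counts describe the libraries and carry no test.

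**Figure D4:**
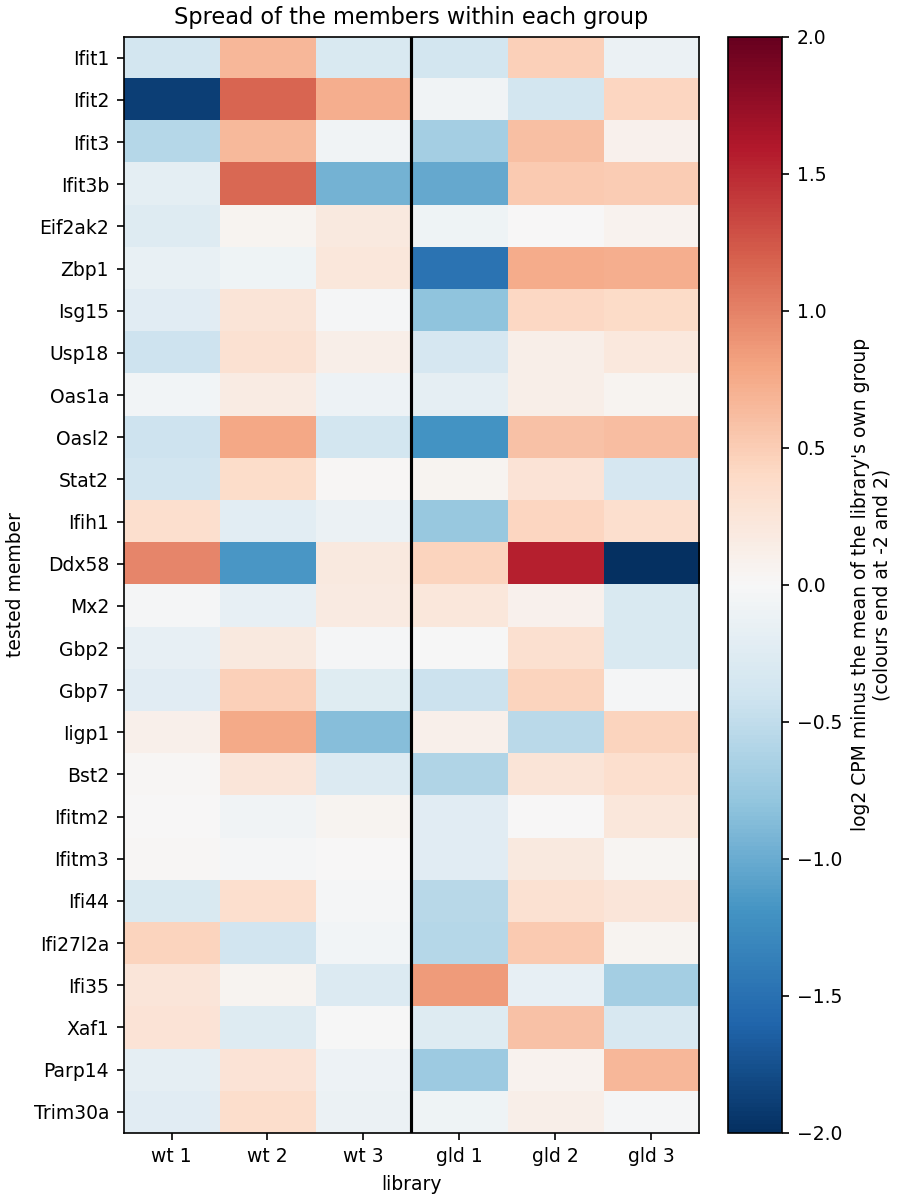
Deviation of each tested member from the mean of its own group, as log2 CPM with a prior count of 2, for the 3 wt (left of the line) and 3 gld libraries, with colours ending at −2 and 2. Red is above and blue below the group's mean, and the gld 1 column is mainly blue and the wt 2 and gld 2 columns mainly red, with Ddx58 and Ifi35 among the exceptions.

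In the other lists of the pathway both directions were called, where 9.74% of all genes tested were higher and 7.69% lower. No interferon ligand had a count: Ifnb1, Ifng, Ifnk, Ifne and the listed Ifna and Ifnl genes were at 0. Of 15 ligand and receptor genes, 3 receptor genes were tested and 0 called (0 also at an unadjusted p under 0.05). Ifnar2, the signalling chain of the type I receptor, had a mean of 122 ± 15.0 CPM in the wt and 93.1 ± 20.4 CPM in the gld libraries (SD, n = 3, edgeR adjusted p = 0.211), and Ifnar1 had 9.69 ± 5.45 and 10.5 ± 2.14 CPM (edgeR adjusted p = 0.928). Of 7 tested of 19 JAK-STAT, IRF and regulator genes, 2 rose and 1 fell. Irf8, a transcription factor of macrophages and dendritic cells, had no count in wt and 33, 18 and 82 in gld, at least 28.3-fold higher against a floor of 3 counts over the wt group (edgeR adjusted p = 0.00171). The phosphatase gene Ptpn2, which switches off JAK and STAT proteins, rose by 2.02 ± 0.55 on the log2 scale (SE, edgeR adjusted p = 0.0182), a call lost without wt 1, wt 3 or gld 1 and in limma-voom, with adjusted p between 0.0608 and 0.0744. Socs3, an inhibitor of cytokine receptors, fell by 0.58 ± 0.12 (SE, edgeR adjusted p = 0.00251).

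Of 8 tested of 23 nucleic acid sensing genes, 1 rose. Samhd1, which depletes the nucleotides that viruses need, averaged 73.3 ± 9.24 CPM across the wt and 150.4 ± 10.7 CPM across the gld libraries (SD, n = 3) and rose by 1.04 ± 0.17 on the log2 scale (SE, edgeR adjusted p = 0.000523). Of 11 genes of the Ifi200 cluster on chromosome 1, 5 were tested and 1, Ifi211, fell by 0.40 ± 0.12 (SE, edgeR adjusted p = 0.0364). That call was lost without each of wt 1, wt 2, wt 3, gld 1 and gld 2 and without a low-count filter, with adjusted p between 0.0738 and 0.124, and 64.3% of the 75-base stretches near the end of Ifi211 also occur in other genes.

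Of 64 further interferon-stimulated genes, 25 were tested, of which 5 rose, 2 (the copies Tgtp1 and Tgtp2) fell and 18 did not pass. The 2 lower calls are near the share over all genes, and the median log2 fold change was −0.03, against −0.76 for the members and 0.02 for all genes tested. The chemokine gene Ccl5 averaged 11.5 ± 6.75 CPM across the wt and 122 ± 13.0 CPM across the gld libraries (SD, n = 3), a rise of 3.38 ± 0.32 on the log2 scale, and the interferon gamma-induced chemokine gene Cxcl9 rose by 3.82 ± 0.73 on 0, 6 and 8 counts in the wt and 56, 63 and 179 counts in the gld libraries (SE, edgeR adjusted p = 2.95e-06 and 0.0017). For Cxcl9 limma-voom gave an adjusted p of 0.101. Ifi30, a lysosomal thiol reductase, rose by 1.35 ± 0.24 (SE, edgeR adjusted p = 0.000855). The GTPase gene Tgtp1 had 63, 134 and 108 counts in the wt and 30, 45 and 41 counts in the gld libraries and fell by 1.92 ± 0.36 (SE, edgeR adjusted p = 0.00141). Its copy Tgtp2, named with Gbp5 and Phf11b after their values were seen, fell by 1.90 ± 0.37 (SE, edgeR adjusted p = 0.00186), but the ends of the pair share 100% of their 75-base stretches and their counts are not separate measurements. The other 2 that rose, Gbp5 (edgeR adjusted p = 0.0202) and Phf11b (edgeR adjusted p = 0.00866), had 9, 21 and 28 and 6, 2 and 3 counts in wt. Gbp5 had 46, 86 and 181 in gld and was not past without wt 1, wt 2, gld 2 or gld 3 (adjusted p between 0.0531 and 0.148) or in limma-voom (0.091), and Phf11b had 22, 62 and 96 and was not past without gld 3 (adjusted p = 0.0656) or in limma-voom (0.134). In CPM, gld 3 was the highest gld library in Irf8, Cxcl9, Gbp5, Phf11b, Ccl5, Ifi30 and Samhd1, and gld 1 in Ptpn2. Over all genes tested gld 3 was the highest gld library in 34.9%. The summed level of macrophage markers was highest in gld 3 too, and the part of these markers was not tested.

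**Figure D5:**
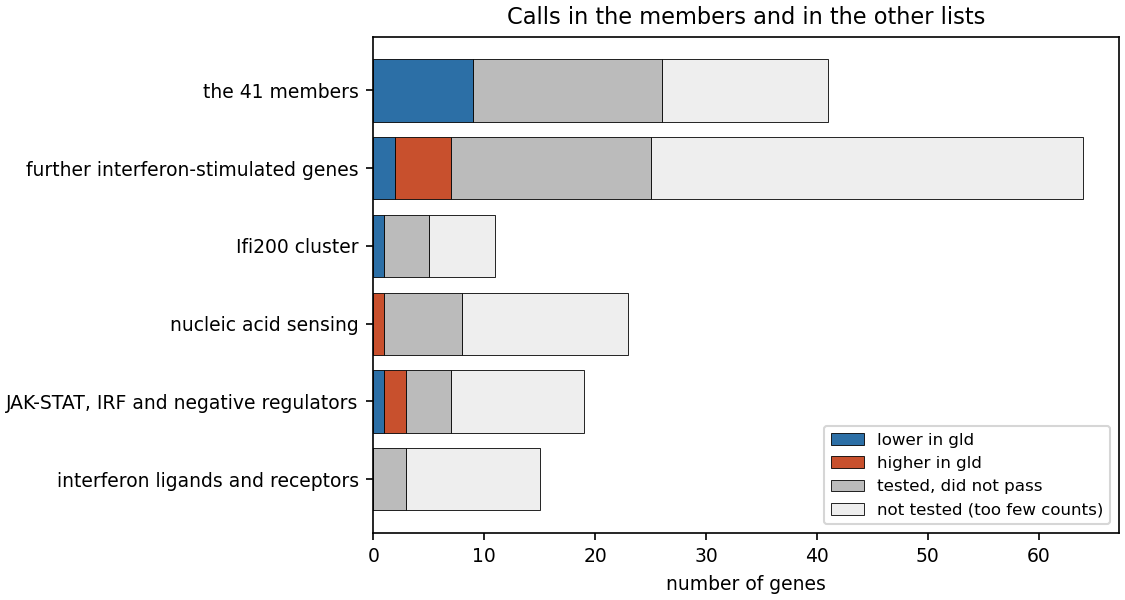
Number of genes called lower (blue) or higher (red) in gld, tested without passing (grey) and not tested (light grey), for the 41 members and the 5 other lists. The members have 9 lower and 0 higher calls, and the further interferon-stimulated genes have 2 lower and 5 higher.

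Of 11 lymphocyte markers, 10 were listed at 0 and Trbc2 had 85, 76 and 188 counts in the wt and 0, 6 and 0 counts in the gld libraries (edgeR adjusted p = 4.84e-05). Of 7 plasmacytoid dendritic cell markers, the defining Siglech, Ccr9 and Spib were listed at 0, and 1 of 4 tested, Irf8, rose. The summed level of that list, mostly Bst2, itself a member, and Tcf4, was 157 to 233 CPM in wt and 167 to 276 CPM in gld. Of 10 endothelial markers, 7 were listed at 0 and 0 of 2 tested passed (0 also at an unadjusted p under 0.05), with Plvap at 6.25 ± 4.74 and Kdr at 5.61 ± 1.71 CPM in gld (SD, n = 3). The macrophage genes C1qb, Marco, Rac2 and C1qc, with 0 to 2 counts in each wt library, had 242 to 1435 counts per library in gld, with edgeR adjusted p of at most 6.28e-07.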

How the data were processed

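Cultured cells were measured by QuantSeq 3′ mRNA-Seq in 3 wt and 3 gld libraries. Per the series' design text, reads were trimmed with Cutadapt and aligned with STAR. Trim Galore, FastQC, DESeq2 and the build mm10 appear in the submitters' processing notes. How reads were counted, and with which strand setting, is not given in the sources used here, so reads of overlapping or near-identical genes may be misassigned. The deposited values are raw counts, whole numbers for each Ensembl gene identifier. 1 row without an identifier was left out. Symbols, positions and transcript ends came from GENCODE M21 (GRCm38). Genes were kept by filterByExpr (about 10 counts in 3 libraries and 15 in total), scaled by TMM and tested with edgeR 4.0.16 (quasi-likelihood, no covariate, R 4.3.3), with p-values adjusted over all genes tested by Benjamini-Hochberg. The SE of a log2 fold change is its size over the root of the F statistic. DESeq2 1.42.0, limma-voom (limma 3.58.1), other scalings, no filter, a replicate block and leaving out each library were tried. A minimum on counts can only pass a low gene through its higher group. The floor of 3 counts covers counting error only, while the SE and SD values also hold the spread between libraries. Tested on simulated counts for gld versus wt over 8692 genes, edgeR recovered 52% of 50 genes changed 2-fold. All members are accounted for. From each other list up to 4 called genes are named, smallest adjusted p first, and where none was called the 2 with the highest level. Members and lists were chosen with earlier results of these data known.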

Additional observations from a re-analysis of the deposited data

How the results depend on the processing

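Over all alternatives 8 of the 9 members called lower stayed past the threshold in the same direction, and the exception was Mx2. The number called lower was 9, and 8 to 10 when each library was left out, and none of the alternatives moved it by more than 1.5 times. The number called higher was 0, and 1 without the low-count filter. Leaving out each library in turn left it at 0. For the 5 other lists together, edgeR called 8 genes higher and 4 lower, limma-voom called 4 higher, library size alone called 7 lower, and leaving out each library gave 6 to 9 higher and 3 to 5 lower. Library size alone moved the median of all genes from 0.02 to −0.14, and that of the members from −0.76 to −0.92, and over all genes it turned 847 higher and 668 lower calls into 720 and 975. Across all genes tested the replicate numbers did not pair the libraries, but among the members they lined up. Libraries wt 1 and gld 1 were most often the lowest (in 13 and 18 of 26 members). Libraries wt 2 and gld 2 were most often the highest (in 16 and 16). Whether same-numbered libraries share a batch was not tested. Over 8692 genes the deviations of same-numbered libraries had correlations of −0.0231, −0.015 and −0.0227, and with the replicate block 9 members were lower (6.89% of all genes) and 0 higher (8.74%), 8 of them among the 9, with Isg15 gained and Mx2 lost. In the other lists the block lost Ifi211 (edgeR adjusted p = 0.0535) and gained Slfn2. The fitted direction changed in 17 refits of 7 members, none of them past the threshold in either fit. With library size alone Gbp2 was at −0.04 and Bst2 at −0.07. Leaving out each library in turn, Ifit3 ran from −0.52 to 0.23, Ifit3b from −0.18 to 1.03, Oasl2 from −0.48 to 0.37, Gbp2 from −0.08 to 0.24, Gbp7 from −0.29 to 0.27, Bst2 from −0.10 to 0.31 and Parp14 from −0.51 to 0.17. The 4 count ratios, chosen after the values were seen, kept their direction without each library. For genes with few counts, such as Ddx58 and Oasl2, whose ends are shared between transcripts, those low counts limit what can be seen.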
